A study of Mus musculus with 7 samples.

Results

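Astrocytes were followed in the hypothalamus of Bgn knockout mice through a set of 31 genes that mark these cells or serve their main tasks. The set was given as a list of gene symbols and matched to the probes of an Illumina bead array through the platform's annotation. All 31 genes had at least 1 of 45 probes on the array, and 30 of them had a probe that passed the detection filter, among 10448 named genes that did so. Hopx, a homeodomain cofactor, was the gene without one: its single probe was detected in 0 of 7 arrays.

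The group labelled Bgn_KO_DHA held 5 arrays (replicates 1 to 5). Its mice ate chow to which 0.5% flaxseed oil had been added, together with 1.2% capsule oil rich in DHA, the omega-3 fatty acid docosahexaenoic acid, over about 6 weeks. The group labelled Bgn_KO held 2 arrays (replicates 1 and 3) from untreated mice. All 7 arrays came from male knockouts on a C57BL/6 background, aged 13 weeks, so both groups lack the matrix proteoglycan biglycan by label and no wild-type mice were measured. No group received flaxseed oil alone or a different oil, and the effect of DHA itself cannot be told apart from that of the added oils. The labels give no animal identities, and if arrays were not separate mice the p-values cover only the spread between these samples. The submitters dropped 1 more untreated sample, which the series text calls an outlier.

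Astrocytes clear glutamate and other transmitters from the synaptic space, turn glutamate into glutamine, buffer ions and water at blood vessels, and secrete factors that shape synapses. After injury or inflammation they become reactive, with more of the filament protein Gfap and of stress proteins. In the hypothalamus they also take part in the sensing of nutrients and hormones, and the tanycytes that line the third ventricle share many of their transcripts.

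The signal below is log2 intensity after background correction and quantile normalization, in which 1 unit is a doubling, and differences are DHA minus untreated. A probe counts as detected when its detection p, the comparison with the negative controls of its array, is under 0.05. The defining astrocyte markers Gfap, Aqp4 and S100b were detected in all 7 arrays, as were 28 of the 30 genes. The DHA arrays detected 14251 to 14534 probes, against 13873 to 13970 in the untreated arrays, and their median unnormalized signal was 174.5 to 189.5, against 167.4 to 173.2. Quantile normalization removes such differences in overall brightness between arrays.

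The astrocyte genes as a whole lay close to equal between the diets, with a few exceptions. The median difference over the 30 genes was 0.07 log2, beside -0.01 over all 10448 genes, and 17 of the 30 differed by less than 0.15 in size. The largest difference was that of Id3 (0.62), and the lowest that of the metallothionein Mt3 (-0.26). In limma, 0 of the 30 genes passed at an adjusted p under 0.05, the smallest being 0.345, and 0% of the 15284 tested probes passed. Since the tissue is bulk hypothalamus, fewer astrocytes and less RNA per astrocyte cannot be told apart.

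At an unadjusted limma p under 0.05, 3 of the 30 genes were higher with DHA (Id3, S100b and Atp1b2) and 0 were lower, where 5.38% of all genes were higher and 4.52% lower. In 5 genes every DHA array lay above both untreated arrays (Id3, S100b, Atp1b2, Aldh1l1 and Agt), which is 16.7% of the 30 beside 8.65% of all genes. In 1 gene, Mt3, every DHA array lay below both untreated arrays, or 3.33% beside 8.79% of all genes. These counts rest on the untreated pair: without untreated replicate 3 they were 11 higher and 4 lower, where 18.6% of all genes were higher and 19.7% lower, since 1 array is easier to clear than a pair. Without untreated replicate 1 they were 8 higher and 1 lower, beside 18.4% and 19.8% of all genes. The direction of the set also depended on the scaling. On the quantile scale 21 of the 30 genes had a difference above 0, beside 48.2% of all genes. These 21 include Slc4a4, which was detected in neither untreated array. After median scaling of the arrays 15 genes were above 0, beside 47.1% of all genes, and the median difference was 0.00075. On that scale 3 genes were above and 5 below without overlap, beside 8.13% and 9.78% of all genes.

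**Figure D1:**
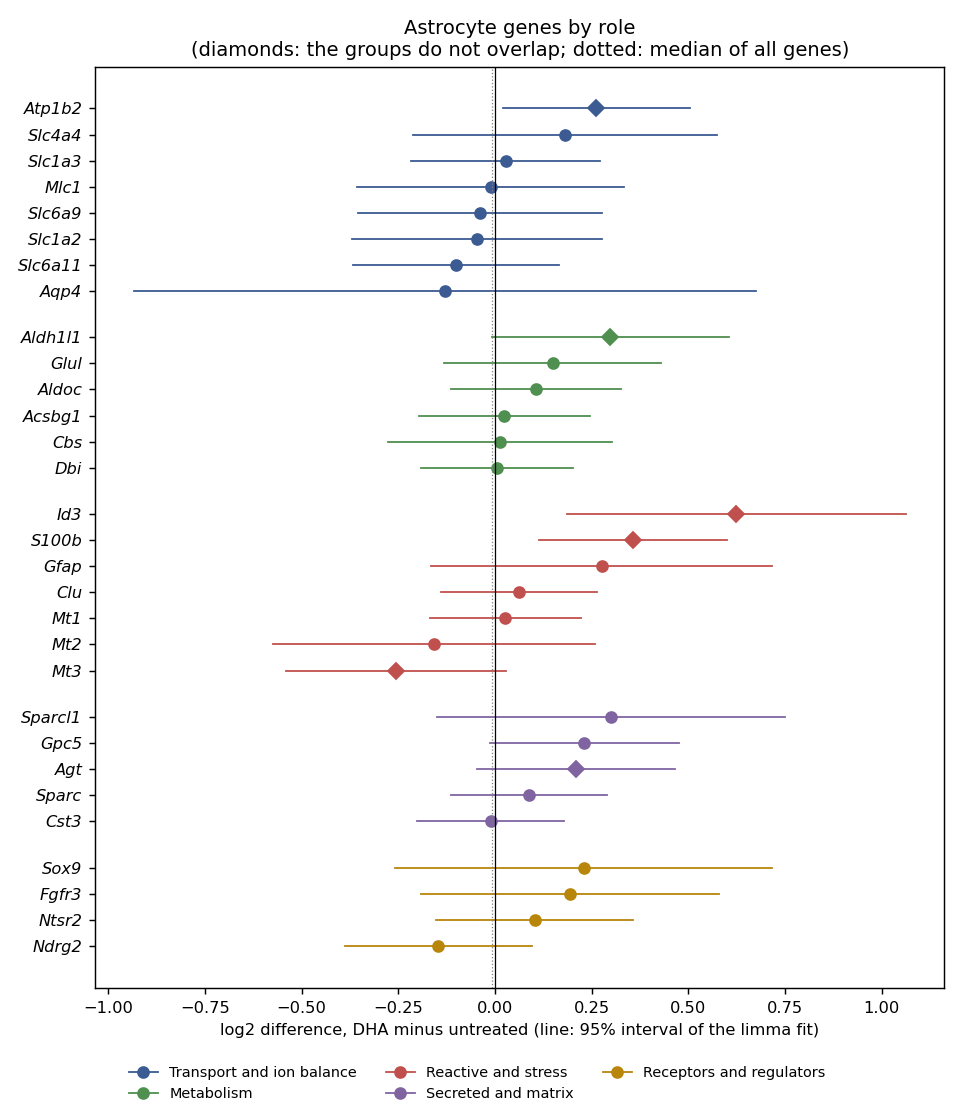
Log2 difference, DHA minus untreated, of the 30 tested astrocyte genes (points, brightest probe of each gene) with the 95% interval of the limma fit (lines), grouped by role. Diamonds mark the 6 genes whose 5 DHA and 2 untreated arrays do not overlap, and most intervals include 0.

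The spread among arrays was of the same size as most differences. For 17 of the 30 genes the gap between both untreated arrays was larger than the difference between the diets, and for 27 the range among the DHA arrays was. The median size of the untreated gap was 0.14, the same as the median size of the difference (0.14). Untreated replicate 1 was the lowest array for 8 genes and untreated replicate 3 for 6, so 14 of the 30 genes had their minimum in an untreated array. DHA replicate 4 was the highest array for 9 genes, untreated replicate 1 for 4 and untreated replicate 3 for 0. These counts were not set beside those of all genes.

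Among the transport and ion balance genes the glutamate and GABA transporters were nearly equal between the diets. Slc1a3, the glial glutamate transporter GLAST, differed by 0.03 (SE 0.11), and the other glial glutamate transporter, Slc1a2 (GLT-1), by -0.05 (SE 0.14) on its brightest probe and by 0.27 (SE 0.16) on another well-detected one. The glycine transporter Slc6a9 differed by -0.04 (SE 0.14) and the GABA transporter Slc6a11 by -0.10 (SE 0.11). The 95% intervals of these 4 genes, on their brightest probes, reached no further than -0.37 and 0.28, so a change of 1 log2 unit in either direction lies outside each of them, whereas a small one does not.

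Atp1b2, the glial beta subunit of the sodium-potassium pump, was the member of this class with the highest difference. Its log2 signal was 12.70, 12.73, 12.93, 12.87 and 12.75 in DHA replicates 1 to 5, against 12.44 and 12.62 in untreated replicates 1 and 3. All 5 DHA arrays were above both untreated arrays, by 0.26 on average (SE 0.10, limma adjusted p 0.464, exact permutation p 0.0476, two-sided, the smallest that the 21 splits of 7 arrays allow). Without untreated replicate 1 the difference was 0.17.

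Aqp4, the water channel of astrocyte endfeet, varied more between arrays than any other of the 30 genes, over a span of 1.56 log2. Its signal was 9.77, 9.99, 10.48, 8.92 and 9.65 in DHA replicates 1 to 5, against 9.93 and 9.86 in untreated replicates 1 and 3. Both the highest and the lowest array were in the DHA group, and the untreated pair lay between them. The mean was lower with DHA (-0.13, SE 0.35, limma adjusted p 0.916), and the direction turned without DHA replicate 4 (0.08).

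The remaining members of the class were dim. Mlc1, a membrane protein of endfeet that forms part of their volume regulation, was detected in 4 of 5 DHA and both untreated arrays and differed by -0.01 (SE 0.15). Slc4a4, a sodium bicarbonate cotransporter, was detected in 2 of 5 DHA arrays and 0 of 2 untreated arrays. Its fitted difference of 0.18 is therefore no fold between measured levels, and no fold is given. With Slc4a4 set to no difference the median over the 30 genes was 0.04. The class median was -0.02, with 3 of 8 genes above 0. Slc4a4 is 1 of these 3, although its direction was not measured.

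The metabolic genes were all on the positive side, by small amounts. The class median was 0.07, with 6 of 6 genes above 0 and 0 at an unadjusted p under 0.05. Without untreated replicate 1 the median was 0.00097, and without untreated replicate 3 it was 0.14.

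Aldh1l1, the folate enzyme widely used to identify astrocytes, had the highest difference of the class. On its brightest probe the log2 signal was 8.91, 8.59, 8.67, 8.89 and 9.02 in DHA replicates 1 to 5, against 8.54 and 8.50 in untreated replicates 1 and 3. All DHA arrays were above both untreated arrays, although replicate 2 only by a narrow margin. The difference was 0.30 (SE 0.13, limma adjusted p 0.5, exact permutation p 0.143). Both other well-detected probes of the gene differed by 0.04 and -0.08, so the higher signal was seen on 1 of 3 such probes.

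Glul, the glutamine synthetase that closes the glutamate-glutamine cycle, differed by 0.15 (SE 0.12). Its signal was 7.05 to 7.17 in the DHA arrays, against 6.75 and 7.16 in the untreated arrays, so only untreated replicate 1 stood below. Aldoc, the brain aldolase of glycolysis, differed by 0.11 (SE 0.09) and the homocysteine enzyme Cbs by 0.01 (SE 0.13). Acsbg1, which activates long-chain fatty acids by joining them to coenzyme A, is the member closest to the lipid diet. It differed by 0.02 (SE 0.10) on its brightest probe and by -0.05 on the other, with a 95% interval of -0.20 to 0.24 on the first.

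Dbi, the acyl-CoA-binding protein that also carries the octadecaneuropeptide, had the lowest difference of the class. Its signal was 14.72, 14.69, 14.61, 14.61 and 14.60 in DHA replicates 1 to 5, against 14.65 and 14.63 in untreated replicates 1 and 3. The groups overlapped throughout, and the difference was 0.01 (SE 0.08) on this probe and 0.02 and -0.02 on its other probes. All 3 probes of Dbi thus placed the diets within 0.02 log2 of each other.

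**Figure D2:**
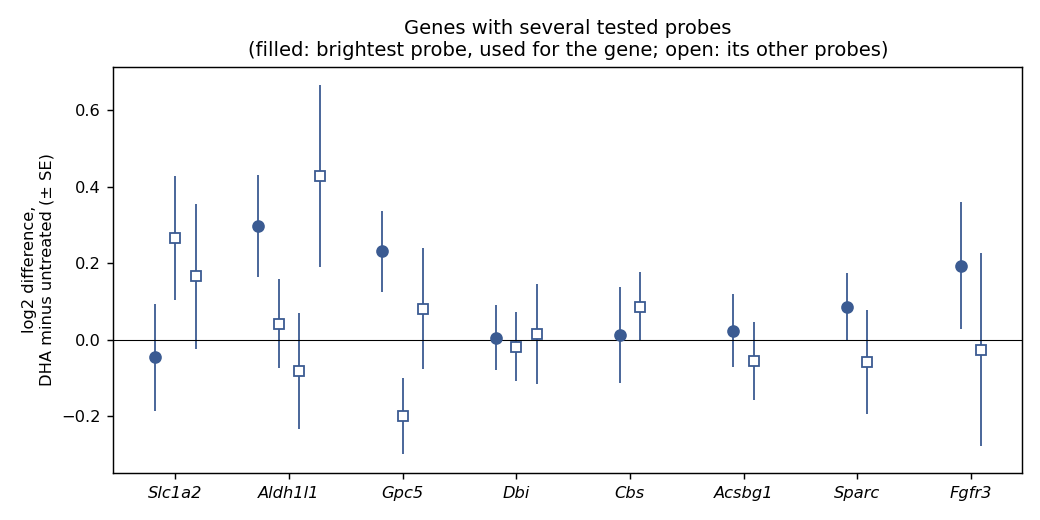
Log2 difference, DHA minus untreated, with its standard error, for the 8 astrocyte genes with several tested probes. Filled points are the brightest probe, used for the gene, and open squares the others; the probes of 7 of the 8 genes do not share 1 sign, and those of Aldh1l1 and Gpc5 lie farthest apart among the well-detected ones.

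The reactive and stress genes held both extremes of the whole set. Gfap, the intermediate filament of reactive astrocytes, had a log2 signal of 8.42, 8.99, 9.13, 8.68 and 8.86 in DHA replicates 1 to 5, against 8.42 and 8.66 in untreated replicates 1 and 3. DHA replicate 1 was as low as the lowest untreated array, and the other 4 were above both untreated arrays. On average Gfap was higher by 0.28 (SE 0.19, limma adjusted p 0.647, exact permutation p 0.238, two-sided). It was 0.16 without untreated replicate 1 and 0.39 without untreated replicate 3.

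S100b, a calcium-binding protein of astrocytes that is also made by part of the oligodendrocytes, had the smallest unadjusted p of the 30 genes. Its signal was 6.67, 6.93, 6.84, 6.83 and 6.67 in DHA replicates 1 to 5, against 6.44 and 6.42 in untreated replicates 1 and 3. Every DHA array was above the untreated pair, which differed from each other by far less than from the DHA arrays. The difference was 0.36 (SE 0.10, 95% interval 0.11 to 0.60, limma adjusted p 0.345, exact permutation p 0.0476). The probe is dim: its unnormalized signal was 229.3 to 253.7 in the DHA arrays, against 202.4 and 209.1, and on the authors' normalized values the difference was 0.15. The oligodendrocyte list (8 genes tested) had a median of 0.04, with 4 higher and 4 lower.

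Id3, an inhibitor of basic helix-loop-helix transcription factors that responds to bone morphogenetic proteins, is made by reactive astrocytes and also by vessels. Its signal was 7.64, 7.87, 8.01, 7.77 and 7.36 in DHA replicates 1 to 5, against 7.32 and 6.89 in untreated replicates 1 and 3. The groups did not overlap, but DHA replicate 5 lay only just above untreated replicate 1. The difference of 0.62 (SE 0.19, 95% interval 0.18 to 1.06, limma adjusted p 0.356, exact permutation p 0.0476) corresponds to 1.54-fold. It was 0.41 without untreated replicate 3 and 0.84 without untreated replicate 1, and 0.34 on the authors' normalized values. Beside it, the meninges and fibroblast list, described below, was higher in every DHA array; its part in the difference of Id3 was not tested.

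**Figure D3:**
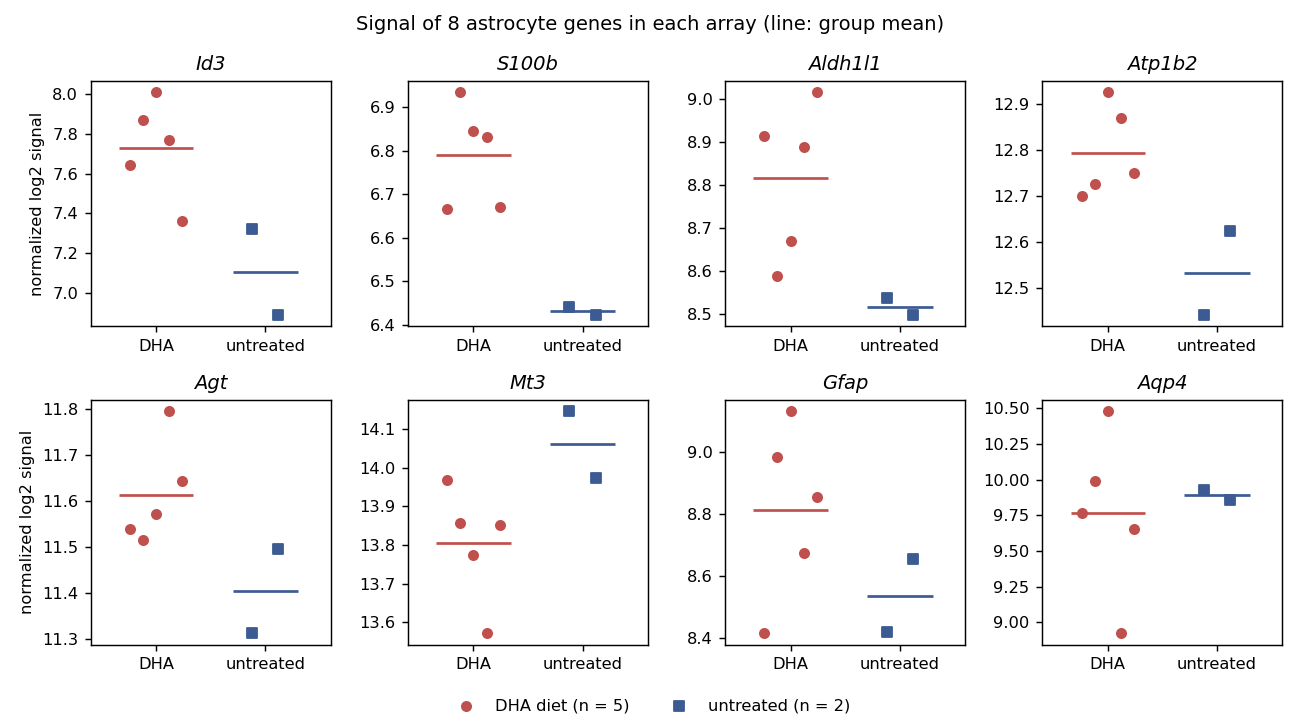
Normalized log2 signal of 8 astrocyte genes in each array, DHA arrays (red circles, n = 5) left of untreated arrays (blue squares, n = 2), with the group means as lines and a separate axis for each gene. Id3, S100b, Aldh1l1, Atp1b2 and Agt are higher and Mt3 lower without overlap, whereas the groups overlap for Gfap and Aqp4.

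The metallothioneins, small cysteine-rich proteins that bind zinc and copper, did not share a direction on the quantile scale. The difference of Mt1 (0.03, SE 0.08) was smaller than its SE, however, and after median scaling it was -0.17, below 0 like those of Mt2 and Mt3. Mt1 and Mt2 are induced by metals, glucocorticoids and inflammation, whereas Mt3 is the neural form and is not induced by metals. All 3 genes lie side by side on chromosome 8. The RefSeq promoter windows (GRCm38.p6, 250 bases before to 50 after the annotated start) are shown for these metallothioneins. They were picked because the differences of Mt1 and Mt3 had opposite signs on the quantile scale. Windows are also shown for Gfap and Id3 of the reactive class and for Agt of the secreted class. The windows are chr8:94178839-94179138 for Mt1, chr8:94172368-94172667 for Mt2 and chr8:94152357-94152656 for Mt3, all on the plus strand. They are chr11:102897151-102897450 for Gfap and chr8:124569657-124569956 for Agt on the minus strand, and chr4:136143572-136143871 for Id3 on the plus strand. Capitals mark matches on either strand to the core of the metal response element (TGCACNC or TGCGCNC), the TATA box (TATAAA) and paired STAT half-sites (TTCNNNGAA).
Mt1: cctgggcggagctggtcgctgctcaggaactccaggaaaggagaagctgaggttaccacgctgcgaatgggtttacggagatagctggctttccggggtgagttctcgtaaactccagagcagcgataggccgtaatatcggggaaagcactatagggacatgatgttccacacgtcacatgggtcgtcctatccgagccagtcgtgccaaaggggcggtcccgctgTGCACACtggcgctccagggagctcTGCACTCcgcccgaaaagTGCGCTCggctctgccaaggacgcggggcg
Mt2: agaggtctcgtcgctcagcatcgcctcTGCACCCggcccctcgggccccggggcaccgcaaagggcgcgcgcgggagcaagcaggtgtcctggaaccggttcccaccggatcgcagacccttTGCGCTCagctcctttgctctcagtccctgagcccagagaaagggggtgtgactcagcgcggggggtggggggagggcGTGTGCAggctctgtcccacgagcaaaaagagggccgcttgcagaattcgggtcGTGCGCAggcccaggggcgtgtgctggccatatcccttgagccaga
Mt3: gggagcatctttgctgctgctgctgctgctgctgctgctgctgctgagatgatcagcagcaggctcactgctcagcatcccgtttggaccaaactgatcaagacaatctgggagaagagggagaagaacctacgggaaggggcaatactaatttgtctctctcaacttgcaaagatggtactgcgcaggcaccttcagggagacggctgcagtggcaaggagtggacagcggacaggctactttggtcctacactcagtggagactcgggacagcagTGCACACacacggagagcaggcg
Gfap: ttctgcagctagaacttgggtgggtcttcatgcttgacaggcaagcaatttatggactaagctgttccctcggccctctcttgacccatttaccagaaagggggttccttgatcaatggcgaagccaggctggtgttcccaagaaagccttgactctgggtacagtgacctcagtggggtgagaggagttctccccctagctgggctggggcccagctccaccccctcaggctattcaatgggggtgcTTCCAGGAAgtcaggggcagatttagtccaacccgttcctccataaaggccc
Agt: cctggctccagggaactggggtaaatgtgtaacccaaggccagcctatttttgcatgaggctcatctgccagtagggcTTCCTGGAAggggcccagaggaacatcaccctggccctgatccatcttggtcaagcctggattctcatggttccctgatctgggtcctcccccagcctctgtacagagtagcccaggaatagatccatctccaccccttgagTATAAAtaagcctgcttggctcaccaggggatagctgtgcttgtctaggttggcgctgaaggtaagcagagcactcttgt
Id3: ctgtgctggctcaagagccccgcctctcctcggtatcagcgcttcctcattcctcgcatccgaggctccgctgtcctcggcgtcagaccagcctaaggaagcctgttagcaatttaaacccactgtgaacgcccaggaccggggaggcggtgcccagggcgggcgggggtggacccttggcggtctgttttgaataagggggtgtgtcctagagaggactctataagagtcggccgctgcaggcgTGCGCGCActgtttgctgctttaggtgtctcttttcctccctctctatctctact

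By these letters the metal response core matched 3 times in the Mt1 window, 4 times in that of Mt2 and 1 time in that of Mt3, and 2 overlapping matches of opposite strand lay in that of Id3. The share of all 32851 mouse promoter windows with at least 1 such match was 25.7%, so a match by itself is common. Paired STAT half-sites matched in the windows of Gfap and Agt, 1 time each, and in 8.3% of all windows. The TATA box matched in the window of Agt alone among the 6 and in 13.6% of all windows. Bases outside the windows were not searched, so a window without a match does not show that the gene's promoter lacks the element. Of the 31 genes, 26 had a window in the table, 35 windows in all, of which 13 held the metal response core, 6 the STAT half-sites and 4 the TATA box. These matches are letters only and show no binding.

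Mt3 was the member with the lowest difference of all. Its signal was 13.97, 13.86, 13.78, 13.57 and 13.85 in DHA replicates 1 to 5, against 14.15 and 13.97 in untreated replicates 1 and 3. All DHA arrays were below both untreated arrays, DHA replicate 1 narrowly. The difference was -0.26 (SE 0.12, limma adjusted p 0.526, exact permutation p 0.0952). In the unnormalized signals, 12731 to 16781 in the DHA arrays, against 17774 and 16507 in untreated replicates 1 and 3, the groups overlapped by 1 array.

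The other metallothioneins overlapped between the diets. Mt2 differed by -0.16 (SE 0.18), with signals of 7.42 to 7.98 in the DHA arrays, against 7.93 and 7.78 in the untreated replicates 1 and 3. Mt1 differed by 0.03 (SE 0.08), at 15.07 to 15.16 in the DHA arrays, against 15.12 and 15.02. Only 4 of 25697 probes on the array were brighter than that of Mt1, and whether its signal was near saturation was not tested. Clu, the secreted chaperone clusterin, differed by 0.06 (SE 0.09). The class median was 0.06, with 5 of 7 genes above 0, and it was -0.07 after median scaling.

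The genes of secreted and matrix proteins had the highest class median, 0.21, with 4 of 5 above 0. When all tested probes of a gene were averaged in place of the brightest, the median was 0.04. Agt, angiotensinogen, which brain astrocytes make as the precursor of angiotensin, had a signal of 11.54, 11.52, 11.57, 11.80 and 11.64 in DHA replicates 1 to 5, against 11.31 and 11.50 in untreated replicates 1 and 3. All DHA arrays were above both untreated arrays, replicate 2 narrowly. The difference was 0.21 (SE 0.11, limma adjusted p 0.544, exact permutation p 0.0952), and 0.12 without untreated replicate 1.

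Sparcl1, or hevin, which promotes the formation of excitatory synapses, had the most positive difference of the class. Its signal was 10.10, 9.77, 10.28, 10.36 and 9.85 in DHA replicates 1 to 5, against 9.55 and 9.99 in untreated replicates 1 and 3. The groups overlapped, since DHA replicates 2 and 5 were below untreated replicate 3. The difference was 0.30 (SE 0.19). Its relative Sparc, which counteracts hevin at synapses and is also made by vessels, differed by 0.09 (SE 0.09) and on its other probe by -0.06.

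Gpc5, a cell surface heparan sulfate proteoglycan of the glypican family, gave opposite results on its probes. The brightest differed by 0.23 (SE 0.11) and another by -0.20 (SE 0.10), and on this second probe every DHA array was below both untreated arrays. The last probe differed by 0.08. No direction is therefore given for Gpc5. Cst3, the secreted protease inhibitor cystatin C, had the lowest difference of the class. Its signal was 14.56, 14.66, 14.60, 14.57 and 14.63 in DHA replicates 1 to 5, against 14.63 and 14.60 in untreated replicates 1 and 3, a difference of -0.01 (SE 0.08). The Cst3 arrays were among the most even of the whole set.

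The receptors and regulators showed no gene whose groups were apart. Sox9, a transcription factor that specifies astrocytes, had signals of 8.11, 7.82, 8.01, 8.09 and 8.43 in DHA replicates 1 to 5, against 7.52 and 8.21 in untreated replicates 1 and 3. The untreated pair was farther apart than the group means, and the difference of 0.23 (SE 0.21) turned to -0.11 without untreated replicate 1. The growth factor receptor Fgfr3 differed by 0.19 (SE 0.17), and by -0.03 on its other probe. The neurotensin receptor Ntsr2 differed by 0.10 (SE 0.11).

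Ndrg2, a cytoplasmic protein abundant in astrocytes, had signals of 11.13, 10.88, 10.98, 11.17 and 11.07 in DHA replicates 1 to 5, against 11.22 and 11.17 in untreated replicates 1 and 3. In 4 of 5 DHA arrays it was below both untreated arrays, and the difference was -0.15 (SE 0.10, limma adjusted p 0.664). The class median was 0.15, with 3 of 4 genes above 0, and it was -0.03 without untreated replicate 1.

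Further astrocyte genes, outside the 31, showed the same picture of small differences. Of a wider list of 40 genes, 32 were tested, 23 were higher and 9 lower, and the median was 0.06. At an unadjusted limma p under 0.05, 3 of the 32 genes were higher and 0 lower, beside 5.38% and 4.52% of all genes. After adjustment 0 of the 32 genes passed. Those with the smallest p were Scara3, a scavenger receptor (0.69, SE 0.15), the perineuronal proteoglycan neurocan, Ncan (0.33, SE 0.11), Dkk3 of the Dickkopf family (0.24, SE 0.09) and the glycine-cleaving enzyme Gldc (0.16, SE 0.09). Among the lower ones the triglyceride enzyme Gpam differed by -0.24 (SE 0.19), the fatty acid hydroxylase Cyp4f14 by -0.10 (SE 0.11), the amino acid transporter Slc7a10 by -0.08 (SE 0.11) and the stem cell factor Sox2 by -0.13 (SE 0.19). The connexin Gja1, through which astrocytes couple, was above both untreated arrays in all 5 DHA arrays by 0.12 (SE 0.08); it was named after its values were seen. In all, 8 of the 32 genes were higher in every DHA array (25% beside 8.65% of all genes) and 0 lower (beside 8.79%).

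Scara3 stood farthest out on that list. Its log2 signal was 9.66, 10.03, 10.11, 9.76 and 9.84 in DHA replicates 1 to 5, against 9.35 and 9.04 in untreated replicates 1 and 3. All DHA arrays lay above the untreated pair, and the limma adjusted p was 0.228. For Slc25a18, a mitochondrial glutamate carrier named after its values were seen, 1 array set the mean: DHA replicate 1 had 12.21, and the other 6 arrays lay between 9.22 and 9.57.

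Lists of genes induced in reactive astrocytes after lipopolysaccharide or stroke were higher by more than the astrocyte genes themselves. In the list shared by both injuries 9 of 9 tested genes were higher, with a median of 0.52. Of these 9, Lcn2 was detected in neither untreated array, so its direction was not measured. The iron-oxidizing ceruloplasmin, Cp, differed by 1.35 (SE 0.29), the intermediate filament vimentin, Vim, by 0.63 (SE 0.20), the oncostatin M receptor Osmr by 0.40 (SE 0.14) and the asparaginase Aspg by 0.43 (SE 0.18). Their limma adjusted p lay above the threshold, at 0.215 for Cp and 0.371 for Vim. The lipocalin Lcn2, seen in 3 of the 5 DHA arrays and in neither untreated array, is given no fold, and with it at no difference the median was 0.43.

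Of the genes induced mainly by lipopolysaccharide 6 of 7 were higher, with a median of 0.35. The complement inhibitor Serping1 differed by 1.54 (SE 0.21, limma adjusted p 0.113), the guanylate-binding protein Gbp2 by 0.87 (SE 0.20) and the glucocorticoid-induced co-chaperone Fkbp5 by 0.35 (SE 0.16). Serglycin, Srgn, a granule proteoglycan of blood cells and macrophages, was measured in all 5 DHA arrays but in neither untreated array. It was at least 1.2-fold higher with DHA (limma adjusted p 0.343), the mean of the DHA arrays set against the lowest detected signal or the probe's own signal in each untreated array. With Srgn at this bound the median was 0.27. Srgn is 1 of the 6 higher genes, although it passed the detection filter through the DHA arrays alone. The class I histocompatibility gene H2-D1 was the lower one (-0.07, SE 0.29), although it was detected in only 2 DHA arrays and 1 untreated array.

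Of the genes induced mainly by stroke 5 of 6 were higher, with a median of 0.39. The sphingosine kinase Sphk1 differed by 1.87 (SE 0.50), the membrane protein Emp1 by 0.65 (SE 0.26), the annexin partner S100a10 by 0.37 (SE 0.18) and the lipopolysaccharide co-receptor Cd14 by 0.41 (SE 0.18), while the glycosyltransferase B3gnt5, detected in 1 array of each group, differed by -0.09 (SE 0.18). On the authors' normalized values the medians of the 3 reactive lists were 0.17, 0.16 and 0.17. How those values were normalized is not stated. Their lowest values were 117.1 to 122.1 in each array, near those of the unnormalized signals, and the column of DHA replicate 5 equals its unnormalized signals. Every DHA array was above both untreated arrays for 3 of 9, 4 of 7 and 3 of 6 genes of the lists, beside 8.65% of all genes. In this way 0 genes of the lists were lower, beside 8.79% of all genes.

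**Figure D4:**
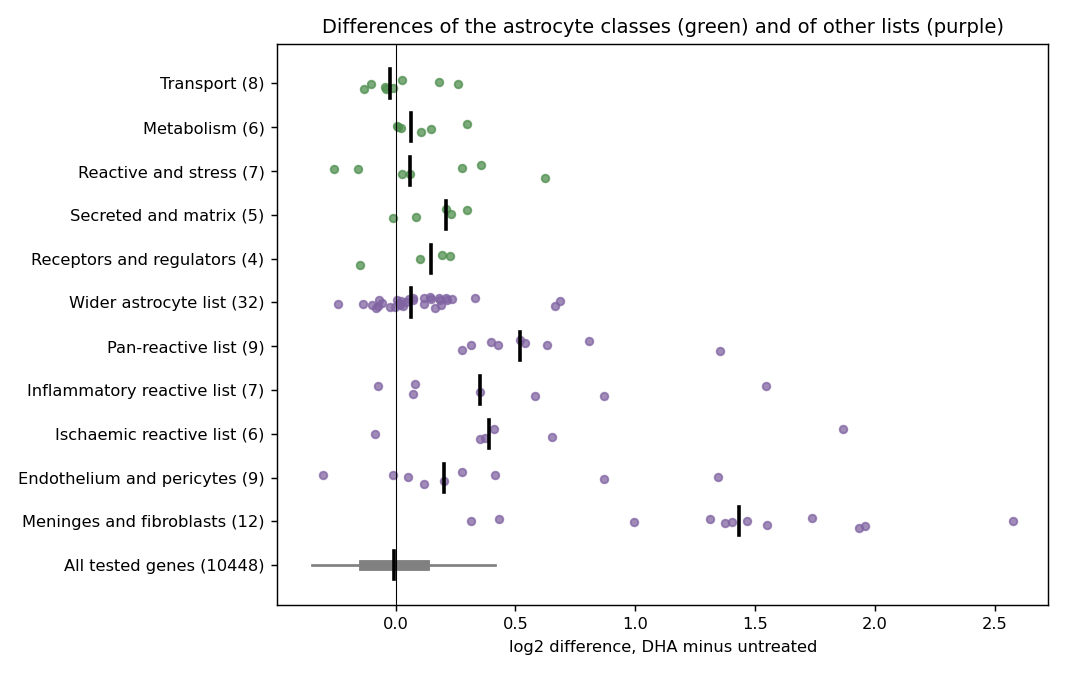
Log2 differences, DHA minus untreated, of the genes in each astrocyte role class (green) and in other lists (purple), with the list median as a black bar and the number of tested genes in parentheses; the grey bar spans the quartiles and the thin line the 5th to 95th percentile of all 10448 genes. The medians of the astrocyte classes run from -0.02 (transport) to 0.21 (secreted) and those of the reactive lists from 0.35 to 0.52, while the meninges and fibroblast list centres at 1.43.

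Among the markers of other cell types, those of meninges and fibroblasts stood farthest from 0. In the meninges and fibroblast list 12 of 12 tested genes were higher (median 1.43), 10 of them at an unadjusted limma p under 0.05, beside 5.38% of all genes, and 0 after adjustment (smallest limma adjusted p 0.117). Its mean log2 signal was 7.80 to 8.58 in the DHA arrays, against 7.41 and 6.47 in untreated replicates 1 and 3. Of the 12 tested genes only 6 were detected in all 7 arrays, although each was detected in at least 1 array of both groups. Col1a2 and Foxd1 had no probe that passed the detection filter. The list of endothelium and pericytes had 7 of 9 genes higher (median 0.20) and overlapping means, 8.59 to 9.0 with DHA, against 8.71 and 8.09. In the microglia list 2 of 8 genes were higher (median -0.01), and in the neuron list 4 of 10 (median -0.02). The means of the astrocyte genes were 10.60 to 10.67 with DHA, against 10.52 and 10.56. Vimentin, serglycin, ceruloplasmin, Serping1 and Sphk1 are also made by meningeal, vascular or blood-derived cells, and the part of these cells in the differences of the reactive lists was not tested.

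The order of the arrays can be set side by side. For the list shared by both injuries the means were 7.27, 7.67, 7.65, 7.77 and 7.43 in DHA replicates 1 to 5, against 7.08 and 6.86 in untreated replicates 1 and 3. For the meninges and fibroblast list they were 7.80, 8.54, 8.58, 8.49 and 8.39, against 7.41 and 6.47. DHA replicate 1 was the lowest DHA array on both lists, and it was also the lowest DHA array for Gfap and Serping1. For Id3 the lowest was DHA replicate 5, at 7.36 against 7.64 in DHA replicate 1. For the astrocyte genes DHA replicate 1 had a mean of 10.64, within the range of the other DHA arrays. The order of the untreated pair also differed. Untreated replicate 1 was above replicate 3 on the 2 lists given here and on the stroke list (6.56 and 6.15). It was below replicate 3 for Gfap and on the list induced mainly by lipopolysaccharide (7.64 and 7.81). Whether these orders share a cause was not tested.

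**Figure D5:**
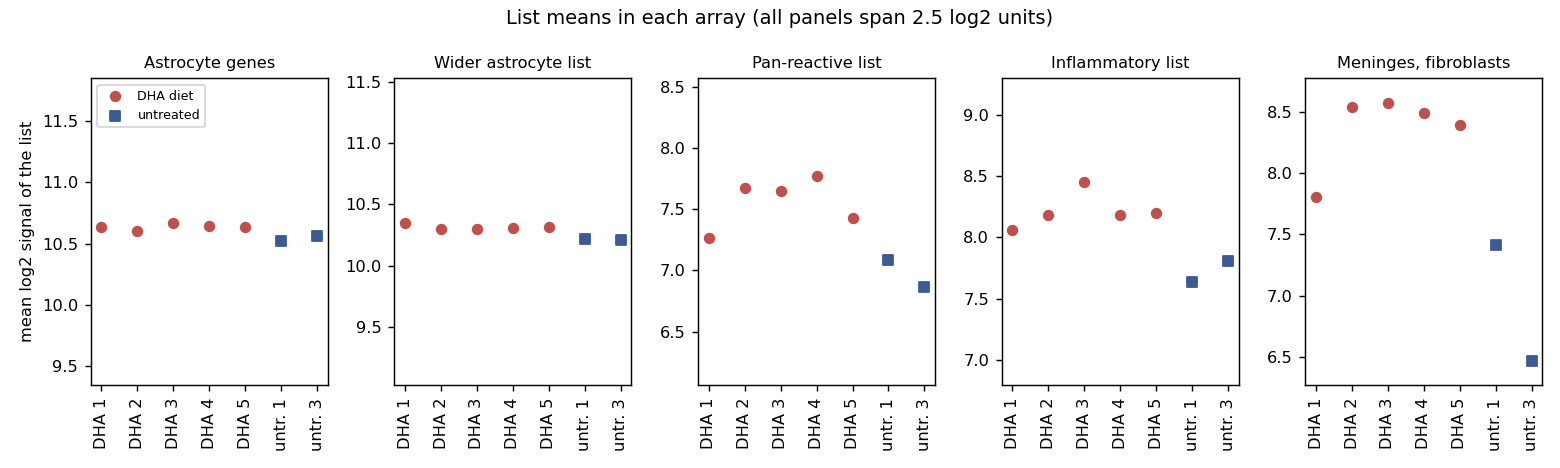
Mean log2 signal of 5 gene lists in each array, DHA arrays (red circles) left of untreated arrays (blue squares), with every panel spanning 2.5 log2 units. The astrocyte genes and the wider astrocyte list look nearly level on this scale, although every DHA mean lies above both untreated means. For the wider list the means are 10.30 to 10.34 with DHA, against 10.22 and 10.21 in untreated replicates 1 and 3. The meninges and fibroblast list separates the groups most.

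Lists of further cells close to astrocytes had medians between 0.02 and 0.27. In the list of tanycytes and ependyma, cells that line the ventricle, 4 of 5 tested genes were higher, with a median of 0.02, and 0 had groups that did not overlap. Rax, the tanycyte transcription factor, had no probe that passed the detection filter. Oligodendrocyte precursors had a median of 0.16 with 4 of 5 higher. In the choroid plexus list the transthyretin gene Ttr ranged from 7.35 to 11.59 in the DHA arrays, against 9.13 and 7.95 in the untreated arrays, and the list median was 0.27 with 2 of 4 higher.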

How the data were processed

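RNA from 7 hypothalamus samples was measured on Illumina bead arrays, per the labels' protocols. The authors deposited an unnormalized table in which, per its header, every array has a column of intensity and one of detection p-value. Judged by its values the intensity is linear, without background subtraction. The table has 2 further per-sample columns that match no sample and were not used. The authors also deposited normalized intensity values on the linear scale, used as an alternative. Among tools, lumi 2.10.0 and R 2.15.0 appear in the submitters' processing notes, and how the authors normalized is not stated there.

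With R 4.3.3 and limma 3.58.1, signals were background-corrected by normexp using the detection p-values (offset 16), quantile-normalized and put on the log2 scale, which shrinks differences of dim probes. On the array, 23978 of 25697 probes had 1 gene symbol, 1719 none and 0 several, and 23962 matched a gene of GRCm38.p6, used for names. The test covered the 15284 probes with a detection p under 0.05 in 2 or more arrays. The diets were compared by lmFit and eBayes, two-sided, with Benjamini-Hochberg adjustment over these probes. The probe with the highest mean stands for a gene. Single genes were also tested by exact permutation over 21 splits. The fit was checked on simulated data. The astrocyte genes and all gene lists were chosen with earlier results of these data known. Values in every array are given for Gfap, Aqp4, S100b, genes whose groups do not overlap and the extremes of each role class; up to 4 genes per direction are named of the other astrocyte and reactive lists, by smallest p. Alternatives were other background corrections, scaling, filters, variance models, probe averages, the replicate number as a block, and each array left out. The number of arrays limits the precision.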

Additional observations from a re-analysis of the deposited data

How the results depend on the processing

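No astrocyte gene passed the test under any of the 18 alternatives, and 498 of 530 gene values kept their direction. Id3, S100b, Atp1b2, Agt and Gfap stayed above 0 and Mt2, Mt3, Ndrg2 and Slc6a11 below 0 in all of theirs. Not every alternative could change these results. Trended, robust variances and exact permutation reuse the main differences, and the detection filters leave those of the genes they keep unchanged. The smallest exact permutation p, 0.0476, cannot pass after adjustment unless nearly all probes share it. Genes with several probes got no p when averaged and are then not among the 530. Of all probes, 12 passed on the authors' values, 12 when background correction was skipped, 1 with an offset of 50 and 52 with trended, robust variances; the cause was not tested. On the authors' values the medians of the pan-reactive, inflammatory and ischaemic lists were 0.17, 0.16 and 0.17, without background correction 0.16, 0.16 and 0.17, and with an offset of 50 the first was 0.30. Cst3 turned to 0.000303 and 2 astrocyte genes were lower without overlap on the authors' values. Scaled to a common median, the astrocyte, transport and reactive class medians were 0.00075, -0.066 and -0.065, 3 genes were higher and 5 lower without overlap, and Slc1a3 (-0.0899), Aldoc (-0.023), Dbi (-0.14), Mt1 (-0.17), Clu (-0.065) and Sparc (-0.037) turned. Without the detection filter the inflammatory and ischaemic medians were 0.078 and 0.22 and 2 astrocyte genes were lower without overlap, as more dim probes entered; with probes detected in all arrays the ischaemic median was 0.65. With probes averaged, the transport, secreted and wider astrocyte medians were 0.0081, 0.038 and 0.027.

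With the replicate block the transport, wider astrocyte and pan-reactive medians were 0.037, 0.097 and 0.35, and Aqp4 (0.23), Slc1a2 (0.043), Slc1a3 (-0.0093) and Slc6a9 (0.031) turned. In this fit the diet difference comes only from replicate numbers present in both groups. DHA arrays without a same-numbered untreated array do not enter these values. The labels do not say that a number marks shared mice. Same-numbered arrays deviated together with correlations of 0.0034 and 0.03. Both correlations rest on the same untreated pair, too few arrays to show whether the number marks paired samples.

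Leaving out each array in turn gave 0 to 3 probes past the test (3 without untreated replicate 3), 5 to 11 astrocyte genes higher and 1 to 4 lower without overlap; over all genes these shares were 10.5% to 18.6% and 10.4% to 19.8%, highest with 1 untreated array. Medians ran from 0.049 to 0.11 for the astrocyte genes, -0.055 to 0.071 for transport, 0.00097 to 0.14 for metabolism, -0.027 to 0.23 for receptors and regulators and 0.062 to 0.10 for the wider list. The single remaining untreated array is then assumed to vary like the DHA arrays. Genes that turned ranged from -0.31 to 0.081 (Aqp4), -0.22 to 0.13 (Slc1a2), -0.054 to 0.11 (Slc1a3), -0.23 to 0.15 (Slc6a9), -0.0600 to 0.073 (Mlc1), -0.056 to 0.35 (Glul), -0.0898 to 0.11 (Cbs), -0.016 to 0.064 (Acsbg1), -0.013 to 0.018 (Dbi), -0.023 to 0.076 (Mt1), -0.026 to 0.0022 (Cst3) and -0.11 to 0.57 (Sox9).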
